A study of Mus musculus with 6 samples.

Results

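The chaperonins of mouse liver were followed here through the transcripts of 10 genes, of 21531 genes with a value. Of the 10, 8 encode the subunits of the cytosolic chaperonin CCT, also called TRiC (Tcp1, Cct2, Cct3, Cct4, Cct5, Cct6a, Cct7 and Cct8), and 2 encode the mitochondrial chaperonin HSP60 (Hspd1) and its partner HSP10 (Hspe1). The members were taken by gene symbol, and the rule used no measured value, but the group was proposed with earlier results of these data known. Where several transcript clusters of the array carried the symbol, the one with the highest mean over the 6 arrays stood for the gene. A transcript cluster is the array's unit of measurement for a gene, summarised from many probes. All 10 symbols were found.

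Liver RNA of fasted and refed mice was measured on Affymetrix Mouse Gene 1.0 ST arrays, 3 arrays per condition. All mice were wild type and 12 to 14 weeks old. Livers of 9 mice per condition were used, and each array received a mixture of liver RNA from 3 of them in similar amounts, so each value is a pool of different mice and the variation among mice within a pool is not seen. Sex, hour of sampling, length of the fast and length of refeeding are not given in the sources used here. Values are RMA log2 values (robust multi-array average), changes are fasted minus refed on the log2 scale, and errors are SDs over 3 pools. A gene was called changed at a Benjamini-Hochberg adjusted p under 0.05 in limma's moderated test over all 21531 genes.

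A chaperonin is a barrel of stacked rings that encloses an unfolded protein and lets it fold with the use of ATP. CCT builds each ring from one copy of every subunit and is best known for folding actin and tubulin, and also proteins with WD40 repeats. HSP60 rings, capped by HSP10, fold proteins after their import into mitochondria, and both genes are widely used as reporters of the mitochondrial unfolded protein response. In liver, the mRNA of many cytosolic chaperones varies over the day with feeding and body temperature, and the chaperonins are therefore set beside those chaperones here.

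Hspd1 and Hspe1 lie head to head on chromosome 1, on opposite strands. In the RefSeq gene table for GRCm38.p6, 215 bases separate the Hspd1 start at 55087932 (minus strand) from the start of Hspe1 (55088148, plus strand). From these starts the genes are read outwards. Another Hspd1 start, at 55088243, lies past the start of Hspe1. The upstream sequences of the members were searched for the heat shock element, a row of GAA units in alternating orientation that is the binding site of heat shock factors. The stretches below are shown because they hold every match to a pair of such units among the members. Capitals mark the matches. The sequences are from RefSeq (GRCm38.p6), 5′ to 3′, from chr1:55088053-55088082 on the plus strand for Hspd1 and Hspe1, chr10:117063399-117063428 on the minus strand for Cct2 and chr15:31601862-31601891 on the minus strand for Cct5.
Hspd1-Hspe1 stretch: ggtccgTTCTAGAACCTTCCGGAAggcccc
Cct2 stretch: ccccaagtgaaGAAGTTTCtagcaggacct
Cct5 stretch: acagcggccgaTTCCAGAAgctactctgcg

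Upstream windows of 250 bases before a transcript start were at hand for 9 of the 10 members, with Cct4 the exception. A pair of units facing one way, GAANNTTC with N for any base, was found upstream of Cct2, Hspd1 and Hspe1. It was in 6.69% of all 32851 such windows and upstream of 7.73% of the 27025 genes that have them. The pair facing the other way, TTCNNGAA, was found upstream of Cct5, Hspd1 and Hspe1. It was in 7.17% of all windows and upstream of 8.11% of genes. Both pairs read the same on either strand. In the Hspd1-Hspe1 stretch the pairs overlap into an unbroken row. A GAANNTTC pair that shares its last unit with a TTCNNGAA pair, searched on both strands, was present there. It was in 0.466% of all windows and upstream of 0.514% of genes. The row begins at -89 from the start of Hspe1 and at -144 from the Hspd1 start at 55087932. For Cct2 the match begins at -42 from the start at 117063375, and for Cct5 at -34 from that at 31601846. These genes each have another start (Hspd1 55088243, Cct2 117063852, Cct5 31601539), whose window held none of these pairs. The row and the Cct2 match lie downstream of the other Hspd1 and Cct2 starts. CCAAT, searched on both strands, was upstream of Tcp1, Cct3, Cct6a and Cct7, in 33.8% of all windows and upstream of 37.5% of genes. CACGTG was at -80 from the Hspd1 start at 55088243 only, in 6.02% of windows and upstream of 6.86% of genes. None of the motifs was found in the window of Cct8. A match describes letters in a window and says nothing of binding.

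No chaperonin transcript passed the test between fasted and refed liver. By limma 0 of 10 members were called, against 3.02% of all genes in either direction, 1.62% lower and 1.4% higher in fasted liver. At an unadjusted p under 0.05 there were 2 members, Cct2 and Cct3, both lower in fasted liver, where 14.1% of all genes stood at that level in either direction and 7.75% lower. Every member had a negative change, while 53% of all genes did. The changes spanned -0.31 to -0.09 with a median of -0.23, and the median over all genes was -0.01. The members share the same 6 arrays and are not independent counts of a direction. With dim genes dropped, 7.03% of 12170 genes were called, 3.89% lower in fasted liver. All 10 members were kept in that fit and 0 were called.

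**Figure D1:**
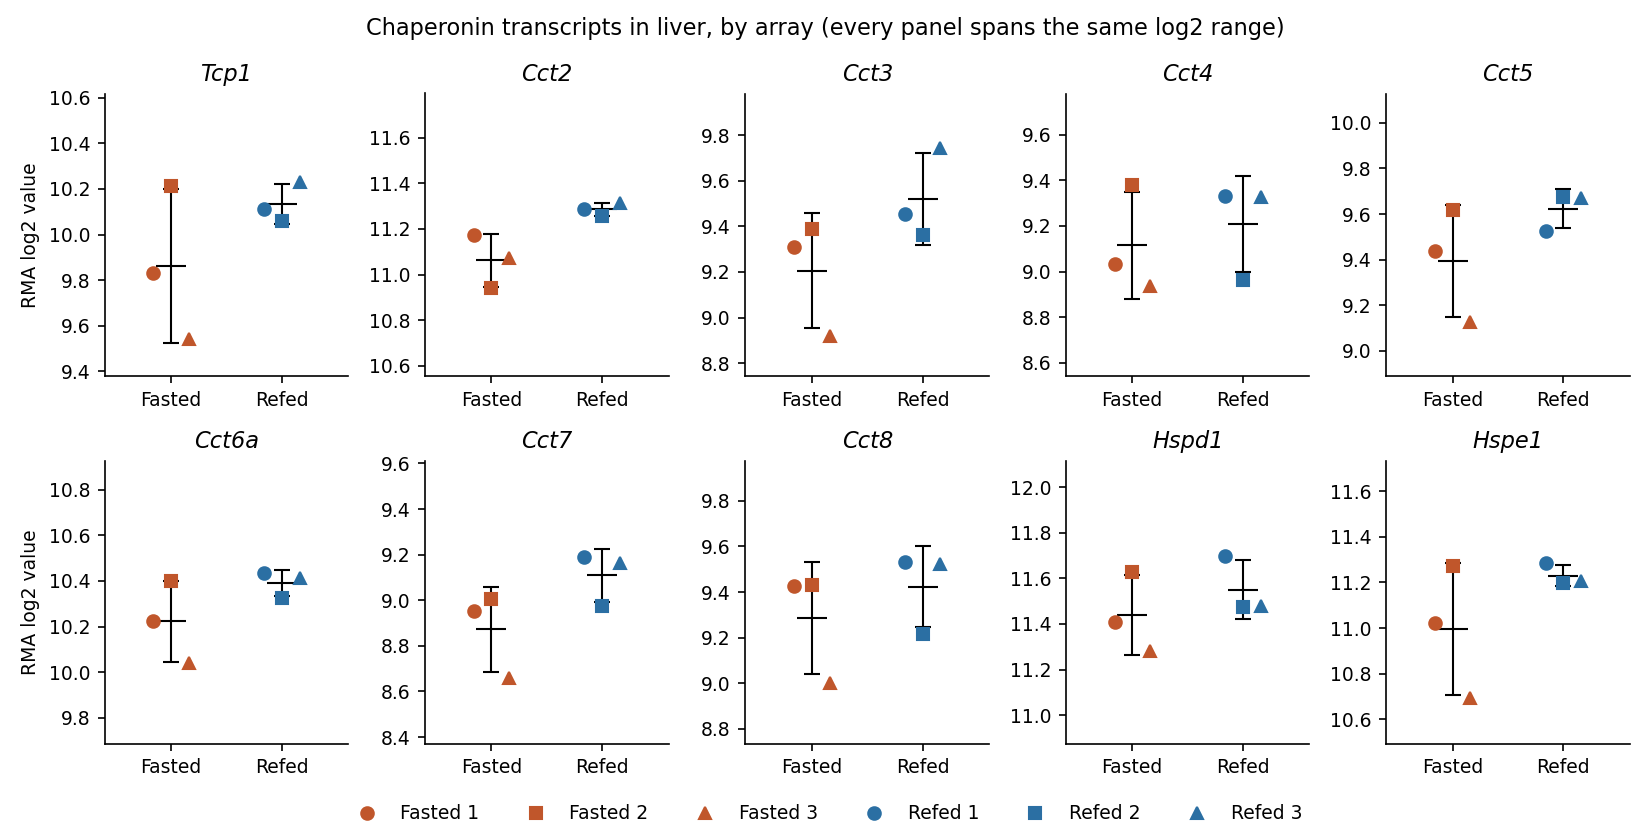
RMA log2 values of the 10 chaperonin transcripts in each of the 3 fasted and 3 refed arrays, with the mean (long bar) and SD (whiskers), in panels that span the same log2 range. Only Cct2 has all 3 fasted values below all 3 refed values, and the fasted array of replicate 3 is the lowest of the 6 in the other 9 panels.

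The first subunits to describe are Cct2, Cct4, Cct5 and Cct7, which in yeast are the subunits that bind ATP most tightly and sit on one side of the ring. Cct2 (chromosome 10, 116488055 to 116500836, minus strand, 34 probes) had log2 values of 11.17, 10.94 and 11.07 in the fasted arrays, against 11.29, 11.26 and 11.31 in the refed arrays. It was the only member whose groups did not overlap, where 18.8% of all genes did not overlap in either direction and 10.7% were lower in fasted liver. Cct2 averaged 11.06 ± 0.12 in fasted and 11.29 ± 0.03 in refed liver (SD, n = 3 each), a change of -0.22 (95% confidence interval -0.42 to -0.02) with an adjusted p of 0.275 by limma.

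Cct5 (chromosome 15, 31520570 to 31531559, minus strand, 35 probes), a subunit in which human mutations cause a sensory neuropathy, was at 9.44, 9.62 and 9.13 in the fasted arrays, against 9.53, 9.68 and 9.67 in the refed arrays. The fasted array of replicate 2 lay within the refed values and the other 2 fasted arrays below them. Its change was -0.23 (95% confidence interval -0.50 to 0.04) with an adjusted p of 0.458. Cct7 (chromosome 6, 85402067 to 85418466, plus strand, 28 probes) stood at 8.95, 9.005 and 8.66 in the fasted arrays and 9.19, 8.98 and 9.16 in the refed arrays. The groups overlapped by a single refed array, replicate 2, which lay below the highest fasted value. The change of Cct7 was -0.24 (95% confidence interval -0.48 to 0.01) with an adjusted p of 0.371.

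Cct4 (chromosome 11, 22890593 to 22903337, plus strand, 25 probes) had the smallest change of the 10. It was at 9.03, 9.38 and 8.94 in the fasted arrays, against 9.33, 8.96 and 9.33 in the refed arrays. The highest of its 6 values was a fasted one and the second lowest a refed one. The means were 9.12 ± 0.23 in fasted and 9.21 ± 0.21 in refed liver (SD, n = 3 each), a change of -0.09 (95% confidence interval -0.39 to 0.21) with an adjusted p of 0.890.

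Tcp1, Cct3, Cct6a and Cct8 form the other side of the ring, whose subunits bind ATP less tightly in yeast. Tcp1 (chromosome 17, 13109331 to 13117933, plus strand, 26 probes), the subunit first described and the source of the name TRiC, was at 9.83, 10.21 and 9.54 in the fasted arrays, against 10.11, 10.06 and 10.23 in the refed arrays. Its fasted values had the widest spread of any member, with an SD of 0.34, and the refed SD was 0.09. The change was -0.27 (95% confidence interval -0.59 to 0.05) with an adjusted p of 0.470.

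Cct3 (chromosome 3, 88101057 to 88125688, plus strand, 18 probes) had the largest change of the 10. Its log2 values were 9.31, 9.39 and 8.92 in the fasted arrays and 9.45, 9.36 and 9.75 in the refed arrays. The lowest array was a fasted one and the highest a refed one, and between them the fasted and refed values were mixed. The means were 9.21 ± 0.25 in fasted and 9.52 ± 0.20 in refed liver (SD, n = 3 each), a change of -0.31 (95% confidence interval -0.62 to -0.01) with an unadjusted p of 0.0442 and an adjusted p of 0.333 by limma.

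Cct6a (chromosome 5, 130293261 to 130322247, plus strand, 28 probes) was at 10.23, 10.40 and 10.04 in the fasted arrays, against 10.43, 10.32 and 10.41 in the refed arrays. Cct8 (chromosome 16, 87483572 to 87496102, minus strand, 32 probes) was at 9.43, 9.43 and 9.001 in the fasted arrays and 9.53, 9.22 and 9.52 in the refed arrays. For both, a single fasted array was the lowest of the 6, and the refed array of replicate 2 lay below at least 1 fasted array. Cct6a changed by -0.17 (95% confidence interval -0.40 to 0.06) with an adjusted p of 0.557, and Cct8 by -0.14 (95% confidence interval -0.43 to 0.16) with an adjusted p of 0.778.

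The 8 CCT subunits were all read by clusters of cross-hybridisation type 1, the annotated table's class of clusters whose probes match a single place. The mitochondrial pair was read differently. The cluster with the highest mean that carries the symbol Hspd1 lies on chromosome 11 (41312239 to 41313960, plus strand, 38 probes) and is of type 3, a class in which some probes also match other transcripts. It is not at the Hspd1 gene. Its values were 11.41, 11.63 and 11.28 in the fasted arrays, against 11.70, 11.48 and 11.48 in the refed arrays. The groups overlapped, with 1 fasted array above 2 of the refed arrays. The change was -0.11 (95% confidence interval -0.36 to 0.13) with an adjusted p of 0.785. A second Hspd1 cluster at the gene itself on chromosome 1 (55134679 to 55144689 in the table's coordinates, minus strand, 9 probes, type 1) gave 10.71, 11.09 and 10.64 in the fasted arrays and 11.08, 10.88 and 10.90 in the refed arrays. Here the fasted array of replicate 2 was the highest of all 6, where in the chromosome 11 cluster it was refed replicate 1, and the change was -0.14 (95% confidence interval -0.42 to 0.14) with an adjusted p of 0.760 over 24446 clusters tested singly.

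For Hspe1 the cluster with the highest mean lies on chromosome 18 (47271812 to 47272336, plus strand, 36 probes) and is of type 3 as well. It had values of 11.02, 11.27 and 10.69 in the fasted arrays, against 11.29, 11.20 and 11.21 in the refed arrays. The fasted values spread with an SD of 0.29 and the refed values with an SD of 0.05, and 1 fasted array lay above 2 refed arrays. Hspe1 changed by -0.24 (95% confidence interval -0.52 to 0.05) with an adjusted p of 0.491 by limma. The cluster at the Hspe1 gene on chromosome 1 (55145161 to 55148151, plus strand, 41 probes) is also of type 3, and its refed mean differed by 1.32 from the annotated table's mean for the same identifier, so it was left out of the gene count. Its values of 9.55, 9.79 and 9.33 in the fasted arrays and 10.01, 9.77 and 9.83 in the refed arrays gave a change of -0.31 (95% confidence interval -0.59 to -0.03), an unadjusted p of 0.0320 and an adjusted p of 0.302 over 24446 clusters. Neither cluster of either gene passed the test, and how much of the type 3 signal comes from other transcripts was not tested.

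**Figure D2:**
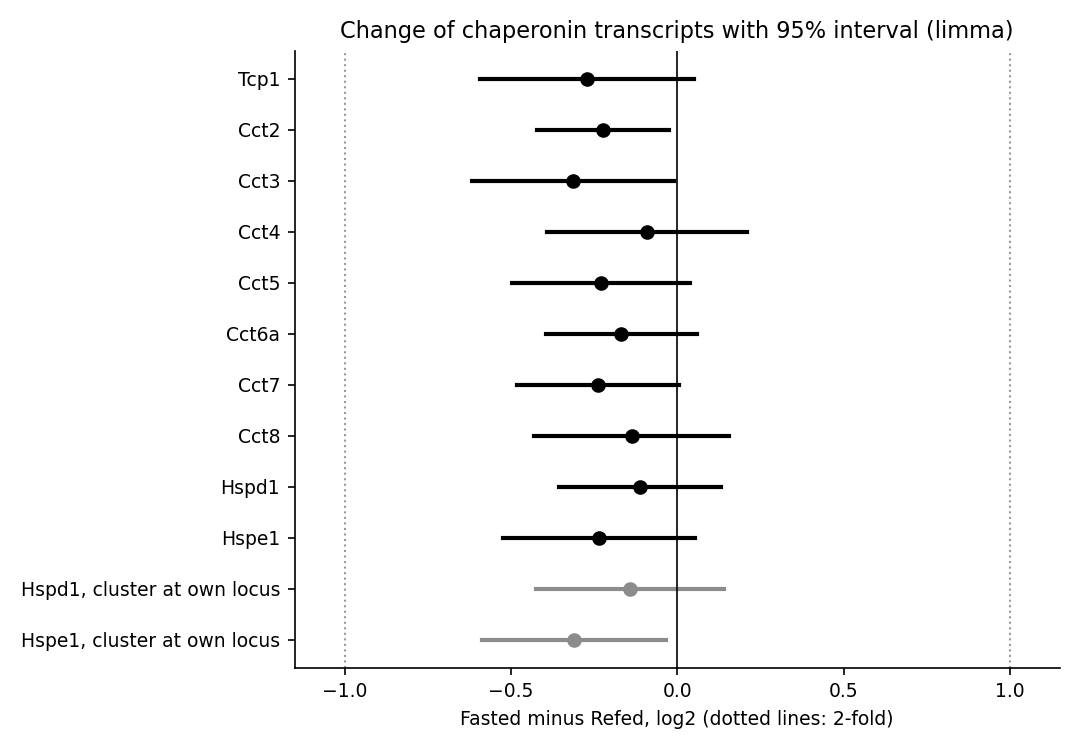
Change of each chaperonin transcript, fasted minus refed on the log2 scale (point), with its 95% confidence interval from limma (line), where dotted lines mark a change of 2-fold and grey marks the clusters at the Hspd1 and Hspe1 genes. All points lie between -0.31 and -0.09, and every interval lies inside the dotted lines.

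The confidence intervals bound what these arrays leave possible. The lower bounds ran between -0.62 and -0.36 over the 10 members, so the greatest decrease within any interval was 1.54-fold, and the greatest increase, for Cct4, was 1.16-fold. Over all genes the smallest absolute change among those called was 0.35 and the median 0.56. No member reached 0.35. The changes of all 10 members were thus smaller than any that was called with 3 arrays per condition, and an exact permutation test of 3 arrays against 3 cannot give a p below 0.1.

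Among the members, values spread more over the fasted than over the refed arrays. In 10 of 10 members the fasted SD was the larger, and in 54.6% of all genes. The members share the same 6 arrays and are not independent counts of a spread. Fasted SDs of the members ran between 0.12 and 0.34 with a median of 0.24, and refed SDs between 0.03 and 0.21 with a median of 0.10. The members moved together across the arrays. With each gene centred on its mean over the 6 arrays, the mean of the 10 was -0.06, 0.08 and -0.32 in the fasted arrays and 0.14, 0.00 and 0.16 in the refed arrays. The fasted array of replicate 3 was the lowest of the 6 for 9 of 10 members (16.3% of all genes), the fasted array of replicate 2 the highest fasted one for 9 of 10 (25.1%) and the refed array of replicate 2 the lowest refed one for 9 of 10 (33.2%). Fasted replicate 3 was below all refed arrays in 10 of 10 members, fasted replicate 1 in 8 and fasted replicate 2 in 1, which was Cct2, where these orders held for 25.8%, 32.6% and 34.2% of all genes. Fasted replicate 2 exceeded the refed mean in 6 of the 10, and in 42.3% of all genes.

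**Figure D3:**
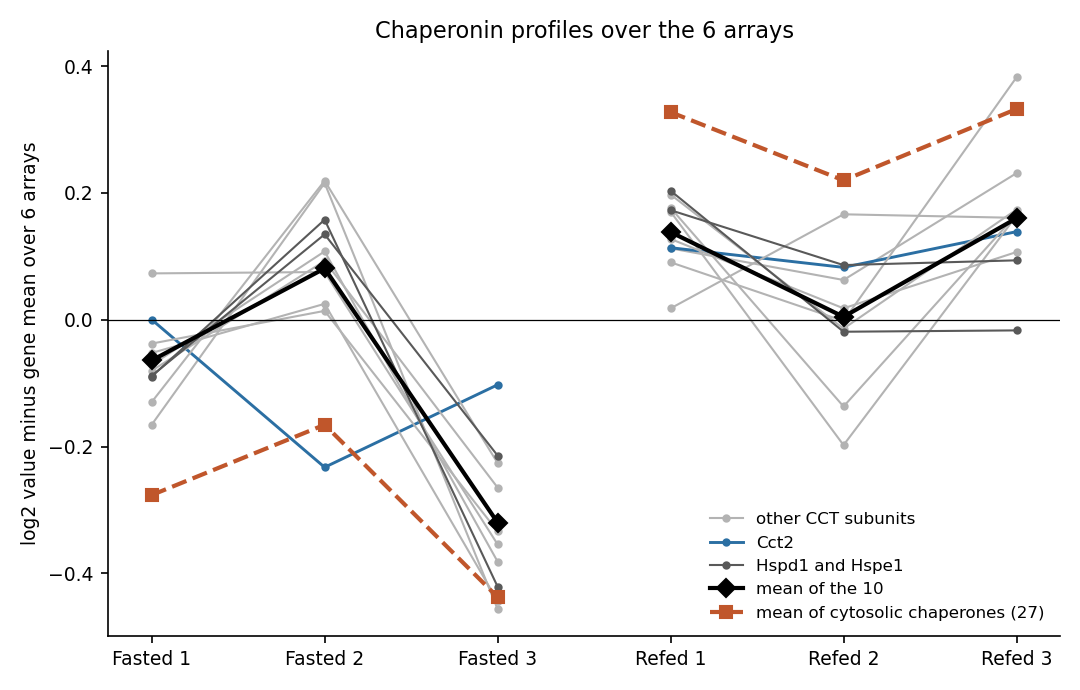
Log2 value of each chaperonin transcript minus its own mean over the 6 arrays, for 3 fasted and 3 refed arrays (lines join values of a gene within a condition and carry no order), with the mean of the 10 and the mean of 27 cytosolic chaperones. The mean of the 10 is -0.32 in fasted replicate 3 and 0.08 in fasted replicate 2, and the cytosolic chaperones are below 0 in all 3 fasted arrays.

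Cct2 departed from this common course. The Pearson correlation of each member with the mean of the 10 over the 6 arrays was 0.989 for Cct6a, 0.975 for Cct7, 0.963 for Tcp1, 0.957 for Hspe1 and 0.935 for Cct3, with Cct8, Cct5, Hspd1 and Cct4 at 0.898, 0.890, 0.824 and 0.807 in that order. For Cct2 it was 0.409. Each gene is part of the mean it was set against, all values come from the same 6 arrays, and the values are descriptions. Cct2 was lowest in fasted replicate 2, the array in which most other members were at their highest fasted value.

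For most members fasted replicate 3 was the lowest fasted array and refed replicate 2 the lowest refed array, and both also stood apart over all genes. The first principal component, with 41% of the variance, had all fasted arrays on one side (-13.69, -18.06 and -11.05) and all refed arrays on the other (8.472, 16.02 and 18.32). On the second, with 26.8%, fasted replicate 3 was at -18.63 and refed replicate 2 at -14.3, and the other arrays lay between 5.596 and 12.12. The part of this component in the members' pattern was not tested. Without fasted replicate 3 the members' median change was -0.09, with 9 of 10 negative and Cct8 at 0.01, and without both arrays the median was -0.12 with all 10 negative. Leaving out fasted replicate 2, the highest fasted array for 9 of 10 members, moved the median to -0.28. The smallest adjusted p by limma was then 0.106, for Tcp1, and 1.82% of all genes were called in that fit. No member was called in any of these fits.

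Genes that work directly with CCT were next set beside it. Prefoldin is a jellyfish-shaped complex that hands new actin and tubulin to CCT. All 6 of its subunits were measured (Pfdn1, Pfdn2, Vbp1, Pfdn4, Pfdn5 and Pfdn6), and by limma 0 were called, 0 also at an unadjusted p under 0.05. The changes were negative for 5 of the 6, and ran between -0.14 and 0.05 around a median of -0.05. Among the 4 phosducin-like cofactors, which regulate CCT or help it to fold its clients, 0 were called. Pdcl, which aids the folding of G protein beta subunits, was at 8.37, 8.36 and 8.08 in the fasted arrays, against 8.57, 8.44 and 8.59 in the refed arrays. Its groups did not overlap, and its change was -0.26 (95% confidence interval -0.49 to -0.04) with an unadjusted p of 0.0265 and an adjusted p of 0.255. The other phosducin-like genes (Pdcl2, Pdcl3 and Txndc9) had changes of -0.11 to 0.20. Chaperonin-like genes outside the complex, namely Cct6b, Cct8l1 and the Bardet-Biedl genes Mkks, Bbs10 and Bbs12, had changes of -0.15 to 0.09, with 0 of 5 called and 0 at an unadjusted p under 0.05.

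The main clients of CCT, actins and tubulins, included 3 transcripts that fell, of 14 measured (Tuba1c had no value). Tubb2a, a beta-tubulin, was at 7.92, 7.94 and 7.74 in the fasted arrays, against 8.50, 8.79 and 8.29 in the refed arrays, a change of -0.66 (95% confidence interval -0.94 to -0.39) with an adjusted p of 0.0164. Tuba1b, an alpha-tubulin read by a type 3 cluster, changed by -0.43 with an adjusted p of 0.0240, and Tubg1, the gamma-tubulin of microtubule nucleation, by -0.40 with an adjusted p of 0.0283. None of these 3 transcripts had overlapping groups. Changes were negative for 13 of the 14, and their median was -0.22, close to the -0.23 of the chaperonins. These calls were not firm, since 0 of 14 were called without fasted replicate 1 and 1 or 2 without any other single array. With the replicate number as a block, 1 of the 3 stayed called, and the adjusted p was 0.0796 for Tuba1b and 0.0991 for Tubg1. In the main fit 7 of the 14 had an unadjusted p under 0.05 (14.1% of all genes). In 8 of the 14 the groups did not overlap (18.8% of all genes). Of the actins, Actg1, read by a type 3 cluster, changed by -0.40 (unadjusted p 0.0102, adjusted p 0.152 by limma). Actb changed by -0.02 (adjusted p 0.969).

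The tubulin folding cofactors that act after CCT had 0 of 6 called, 0 at an unadjusted p under 0.05 and a median change of 0.00. Of 8 WD40 clients 0 were called, with a median of -0.01. Only Mlst8, a subunit of the mTOR complexes, had an unadjusted p under 0.05 there, with a change of -0.26 and an adjusted p of 0.311.

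**Figure D4:**
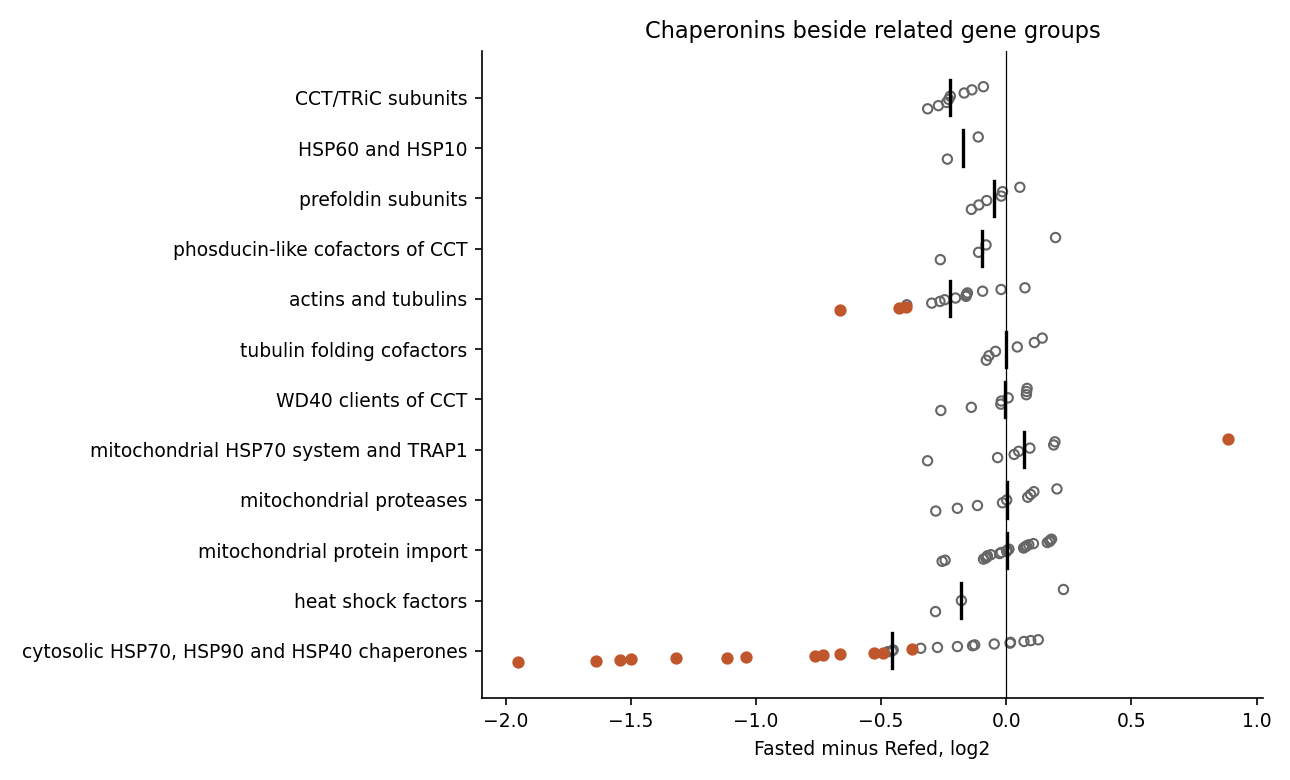
Change of each gene, fasted minus refed on the log2 scale, in the chaperonin lists and in 10 lists of related genes (circles), where filled circles passed an adjusted p of 0.05 by limma and the bar is the list's median. Chaperonin subunits sit at a median of -0.23 with 0 filled, cytosolic chaperones at -0.46 with 13 of 27 filled, and Grpel2 stands alone at 0.88 in the mitochondrial HSP70 list.

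Around HSP60 in the mitochondrion, 1 transcript rose. Grpel2, a nucleotide exchange factor that frees mitochondrial HSP70 from ADP, was at 10.46, 10.29 and 10.21 in the fasted arrays, against 9.50, 9.47 and 9.34 in the refed arrays. All 3 fasted values lay above all refed values, with a change of 0.88 (95% confidence interval 0.67 to 1.09) and an adjusted p of 0.000961, and it was called in every fit tried. Of the 8 measured genes of the mitochondrial HSP70 system and TRAP1, Grpel2 was the only one called, and the median was 0.07. Dnlz, a zinc finger partner of mitochondrial HSP70, lay at the other end of the list with -0.31 and an adjusted p of 0.138. These 2 and Hscb, a co-chaperone of iron-sulfur cluster assembly (0.19, adjusted p 0.329), were the 3 genes of the list at an unadjusted p under 0.05. By limma 0 of 9 mitochondrial proteases were called, with Clpp, the proteolytic core of the ClpXP protease, at -0.28 (unadjusted p 0.0171, adjusted p 0.204) the only one at an unadjusted p under 0.05. Of 21 genes of mitochondrial protein import 0 were called, and Tomm20 (-0.26) and Tomm6 (-0.24), both of the outer membrane translocase, had an unadjusted p under 0.05 with adjusted p of 0.225 and 0.274. The medians of both lists were 0.00.

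Transcription factors tied to chaperonin genes did not pass the test either. Of 4 regulators of the mitochondrial unfolded protein response 0 were called, and 3 had an unadjusted p under 0.05. Ddit3 (CHOP) had a change of -0.42 with an adjusted p of 0.0591, Atf4 of -0.21 with 0.305, and Cebpb of 0.28 with 0.327. Of 3 heat shock factors 0 were called. Hsf1, the main activator of the heat shock response, was at 9.75, 9.38 and 9.70 in the fasted arrays, against 9.81, 10.04 and 9.83 in the refed arrays, a change of -0.28 with an unadjusted p of 0.0330 and an adjusted p of 0.284.

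The cytosolic HSP70, HSP90 and HSP40 chaperones and their cofactors deliver clients to CCT or act beside it, and were listed beside the chaperonins. Of 27 measured, 13 fell and 0 rose, 22 changes were negative and the median was -0.46. Hsph1, an exchange factor of HSP70, changed by -1.95 (adjusted p 5.10e-05), the inducible HSP70 gene Hspa1a by -1.54 (adjusted p 6.57e-05), Stip1, which links HSP70 to HSP90, by -1.04 and the HSP90 gene Hsp90aa1 by -1.50 (adjusted p 0.000566 for both). The small heat shock gene Hspb1 changed by -1.64 (adjusted p 6.57e-05) in a type 3 cluster, but by 0.07 (adjusted p 0.892) in its type 1 cluster. Hspa1a and Hsp90aa1 were also read by type 3 clusters. With type 1 clusters only, Hspa1a changed by -1.16 (adjusted p 0.000344 by limma). The fasted array of replicate 3 was the lowest of the 6 for 19 of the 27 as well. Their mean centred values were -0.28, -0.17 and -0.44 in the fasted arrays and 0.33, 0.22 and 0.33 in the refed arrays, so the 2 conditions did not overlap in this mean, as they did in the mean of the chaperonins. Without fasted replicate 1, 8 of the 27 were called, and without any other single array 11 to 15. Whether the chaperonins and these chaperones differ in their change was not tested.

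Markers of liver cell types were checked in the same fit. The hepatocyte markers Alb, Apoa1, Ttr, Cps1, Fgb and Hnf4a averaged 13.6 log2 units on each array, and 0 of 6 were called, with Hnf4a at an unadjusted p under 0.05 (-0.25, adjusted p 0.193). The highest value of any transcript cluster on these arrays was 14.34. Whether values so near the top can show a change was not tested. Among 7 Kupffer cell and macrophage markers 1 fell, Vsig4 (-0.71, adjusted p 0.00905), and all 7 had a negative change. Cd68 (-0.36, adjusted p 0.171) and Adgre1 (-0.27, adjusted p 0.245) also had an unadjusted p under 0.05. The log2 of their summed linear level was 11.41 to 11.48 in fasted and 11.60 to 11.95 in refed liver. Among 5 cholangiocyte markers 1 fell, Sox9 (-0.53, adjusted p 0.0141), with a summed level of 9.75 to 9.81 in fasted and 9.92 to 10.01 in refed liver. Spp1 of the same list had a change of 0.27 with an unadjusted p of 0.0569 by limma, and the other 3 did not have an unadjusted p under 0.05. Both calls were lost without fasted replicate 1 (adjusted p 0.0543 for each), and that of Sox9 also without fasted replicate 2 or refed replicate 3 (0.0582 and 0.0667). That of Vsig4 was lost as well without both fasted replicate 3 and refed replicate 2 (0.0607). No gene was called among 6 endothelial, 6 stellate, 7 lymphocyte and neutrophil and 3 erythroid markers, with 2, 1, 2 and 0 at an unadjusted p under 0.05. These were Pecam1 (0.21) and Kdr (0.28) of endothelial cells, Lrat (-0.24) of stellate cells, and Nkg7 (-0.24) and Ly6g (-0.23) of lymphocytes and neutrophils. In whole liver, fewer cells of a type and less RNA per cell cannot be told apart, and the part of these markers in the chaperonin values was not tested.

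The 5 other genes whose values over the 6 arrays were most like the mean of the 10 chaperonins were Tmem49 (Pearson r 0.992), Akirin1 (0.991), Selk (0.991), Kpna2 (0.989) and Prkrir (0.988). Tmem49 is an older name of the autophagy gene Vmp1, Selk encodes a selenoprotein of the endoplasmic reticulum, and Kpna2 encodes an importin alpha. Akirin1 was at 8.72, 8.93 and 8.20 in the fasted arrays, against 8.98, 8.75 and 8.99 in the refed arrays, with fasted replicate 3 the lowest fasted array and refed replicate 2 the lowest refed array, as in most of the chaperonins. The changes of the 5 were -0.29 to -0.15, and none was called, with adjusted p of 0.489 to 0.662. With 21531 genes and 6 arrays such values of r describe these arrays only.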

How the data were processed

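Liver RNA of wild-type mice was hybridised to 6 Affymetrix Mouse Gene 1.0 ST arrays, 3 fasted and 3 refed, each holding a pool of 3 mice, so p-values measure the spread between pools. The authors deposited log2 values per transcript cluster, background-corrected, normalised and summarised by RMA, for which the submitters' processing notes name Affymetrix Expression Console 1.3.1.187. Gene symbols, positions, probe numbers and cross-hybridisation types came from the authors' annotated table, whose description text names NCBIM37. The fold changes and p-values of the authors' own comparison in that table were not used, nor were 12 columns of values not tied to a labelled sample. Arrays give no depth, so their number limits the precision. The 6 array medians lay between 6.73 and 6.81.

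Of 34760 transcript clusters, 24446 were in both tables with 1 symbol. The 558 whose refed mean differed by over 1 log2 unit from the annotated table's livWTR mean, a deposited log2 mean of the authors, were left out, 542 of them of a cross-hybridising type. The cluster with the highest mean stood for each of 21531 genes. The conditions were tested in R 4.3.3 by limma 3.58.1 (lmFit and eBayes, group as the only term, two-sided). The fit was tested on simulated data. The alternatives left out each array in turn, left out fasted replicate 3 and refed replicate 2 together, blocked on the replicate number, dropped the identifier filter, dropped dim genes, used a trended and robust prior, centred the arrays, averaged the clusters of a gene, or kept type 1 clusters only.

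The members and lists were chosen with earlier results of these data known. All 10 members are named whatever their values, with up to 4 called genes of every other list by smallest adjusted p (ties included), genes behind a count of 5 or fewer, and the 5 genes most like the members' mean profile. Pfdn6, Tubb4a, Tubb4b and Adgre1 were found under older symbols. Genes named for an unadjusted p under 0.05, Dnlz, Actb, and the genes outside the members shown by array were chosen after their values were seen. Upstream sequences are RefSeq's for GRCm38.p6 and were matched by symbol, and motifs were searched in the 250 bases before each transcript start.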

Additional observations from a re-analysis of the deposited data

How the results depend on the processing

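No chaperonin was called in any alternative, and all 10 had a negative change in each of them except without fasted replicate 3, where Cct8 stood at 0.00567 (adjusted p 0.988, its range with 1 array left out being -0.24 to 0.00567), and with type 1 clusters only, where the 9 with such a cluster were all negative. In the other 138 comparisons of a member with an alternative, direction and call were kept. Over all genes, 651 were called, 266 to 616 with 1 array left out (266 without fasted replicate 1, 392 without fasted replicate 2, 336 without refed replicate 3) and 413 without both fasted replicate 3 and refed replicate 2. The share of called genes that were lower in fasted liver was 53.6%, and 40.7% to 62.8% with 1 array left out (40.7% without fasted replicate 3, 62.8% without fasted replicate 1). Hspb1 reversed to 0.0737 with type 1 clusters only. Of the actins and tubulins, 0 were called without both fasted replicate 3 and refed replicate 2, and Tubg1 lost its call without any 1 array (adjusted p 0.0517 to 0.121), in settings added after seeing the data. The cause of these differences was not tested.

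Arrays of the same replicate number did not deviate alike. The deviations of same-numbered arrays from their group means correlated at 0.069, -0.229 and -0.335, and no array correlated best with its own number. The highest value was 0.447, for fasted replicate 3 with refed replicate 2. Deviations within a group of 3 arrays sum to 0, so this check cannot settle whether arrays were paired. With the replicate number as a block, 457 genes and 0 members were called. The deposited values are summarised over probes, so they do not show how far a probe stood above background.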
